A study of Homo sapiens with 10 samples.

Results

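SCD and 9 further genes of fatty acid synthesis, elongation and desaturation were followed in GIST-T1 cells, an established human line from a metastatic gastrointestinal stromal tumour (GIST). The 10 genes, of 58381 gene rows in the deposited tables, were SCD, SCD5, FADS1, FADS2, ACLY, ACACA, FASN, ELOVL6, ELOVL5 and SREBF1. SCD was chosen by its low level in the InsF line, and the others by their function with results of these libraries known. SCD values are therefore given as a description without a test. All 10 genes had counts in every library and passed the filter on low counts.

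The libraries came from 4 derivative lines in which a CTCF insulator had been disrupted, labelled InsE, InsF, InsG and InsH, and from the control line, with the genotype WT. CTCF is a DNA-binding protein found at many boundaries between chromosome loops. Each group had 2 libraries of polyadenylated RNA, and all groups shared the parental line and the growth medium with serum. The labels name each line by a letter and do not state which insulator it lacks, whether a line is 1 clone or how it was edited. Separate cultures are not stated for the 2 libraries of a line, and the p-values below therefore rest on a spread that could be purely technical. The 4 comparisons with control share the same 2 control libraries.

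Cells make saturated fatty acids from citrate. ACLY splits citrate into acetyl-CoA, ACACA carboxylates it to malonyl-CoA, and FASN builds palmitate from both. ELOVL6 lengthens palmitate to stearate, SCD and its relative SCD5 place the first double bond in saturated chains, and FADS2, ELOVL5 and FADS1 act in the pathway that makes long polyunsaturated fatty acids. SREBF1 encodes SREBP1, a transcription factor held in the endoplasmic reticulum until it is cleaved, and many of the genes above are known SREBP targets. The pathway is most active in liver and fat, and is raised in many tumours.

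The libraries held 9399554 to 42499885 estimated counts. Replicate 1 was the deeper library in every group, with at least 22912425 counts, against at most 20078653 counts in replicate 2. The lowest count of any of the 10 genes in a library was 159, for SCD5. The chi-square of the counts of the 2 libraries per degree of freedom was 6.59 to 7.69 in the insulator lines and 1.39 in control, so the control libraries lay closer together. The 6 GIST markers summed to 2520 to 2660 TPM (a share of all transcripts, corrected for length) in the insulator lines and to 3350 and 3360 TPM in control. Of these 6, KIT and ANO1 among them, 4 were called lower in InsE and 5 in each of the other 3 lines (edgeR adjusted p under 0.05). Of all tested genes 12.4%, 11.3%, 10.5% and 9.46% were called lower in InsE, InsF, InsG and InsH. The median log2 change of the 6 markers was -0.58 to -0.41. The part of this in the results below was not tested. Hepatocyte, epithelial and leukocyte markers summed to at most 2.4 TPM in any library, and of the adipocyte markers ADIPOQ and PLIN1 were at 0 in all libraries. Adipocyte markers summed to 476 to 659 TPM, of which FABP4 alone gave 476 to 658 TPM. In such bulk libraries fewer cells making a transcript and less of it per cell cannot be told apart.

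Most enzymes of the pathway were lower in InsF, InsG and InsH than in control, and InsE lay close to control. FASN, the palmitate synthase, fell to about the same level in InsF, InsG and InsH, and ACACA, ACLY, FADS1 and FADS2 fell in these 3 lines as well. SREBF1 was the only one of the 10 genes with a call above control, in InsE. Calls were made with edgeR's quasi-likelihood test, at an adjusted p under 0.05 over 15554 genes. Of the 9 genes other than SCD, 7 fell in InsF, where 11.3% of all tested genes were called lower. In InsG 5 fell, with 10.5% of all genes called lower, and in InsH 6 fell, with 9.46%. In InsE 4 fell, with 12.4% called lower. In InsE 1 rose, SREBF1, with 10.8% of all genes called higher. None of the 9 rose in InsF, InsG or InsH, where 10.9%, 9.86% and 8.95% of all genes were called higher by edgeR. The median log2 change of all tested genes was 0.01 in each of these comparisons. Without control replicate 1 or without control replicate 2, the count in InsF was 4, and in InsE it was 2 or 3 whichever single library was left out.

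**Figure D1:**
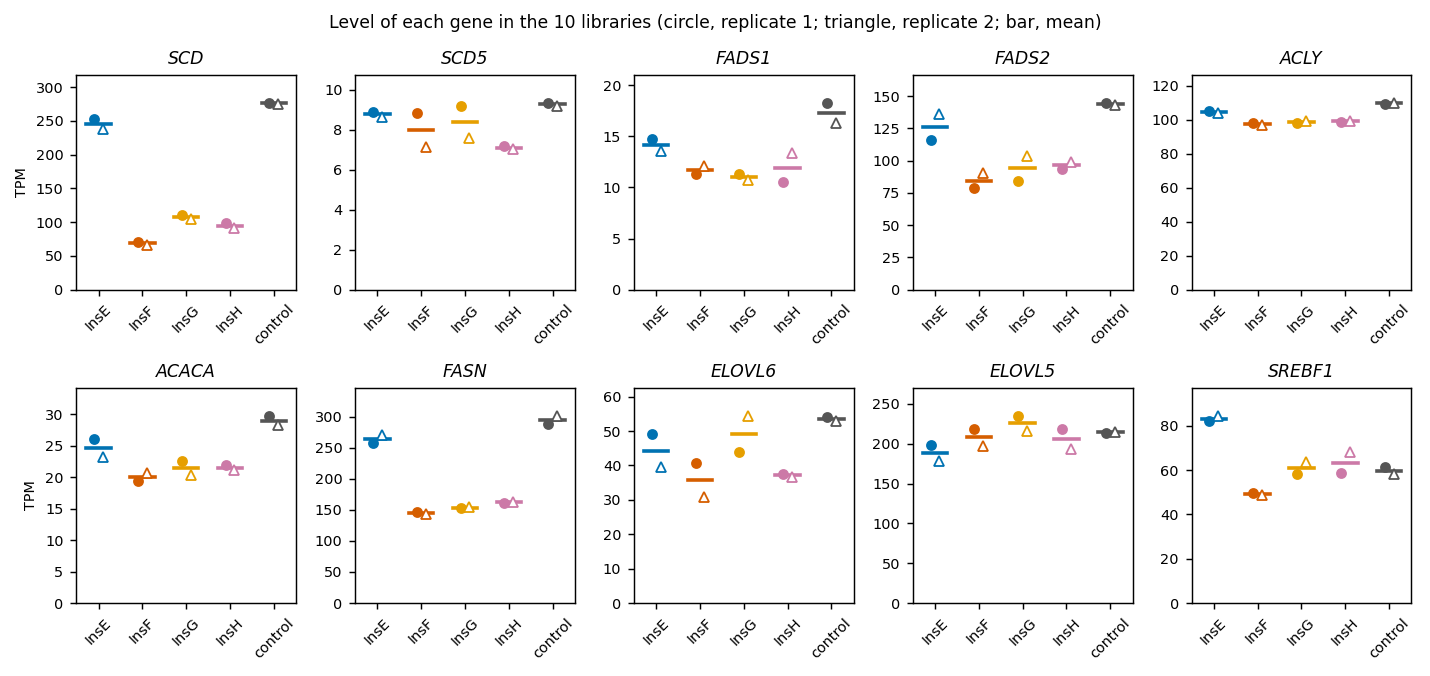
Level in TPM (vertical axes, each from 0) of the 10 genes in the 4 insulator lines and control (horizontal axes); circles are replicate 1, triangles replicate 2 and bars group means. SCD lies at 66.6 to 111 TPM in InsF, InsG and InsH, against 275 and 277 TPM in control, FASN lies at 143 to 163 TPM in these 3 lines, and SREBF1 is highest in InsE at 82.0 and 84.5 TPM.

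SCD (chr10:100347124-100364834 on the plus strand, hg38), the main delta-9 desaturase, had 70.7 and 66.6 TPM in InsF, 111 and 104 TPM in InsG and 99.0 and 91.1 TPM in InsH. It had 252 and 238 TPM in InsE, against 277 and 275 TPM in control. All insulator libraries lay below both control libraries, InsE by a small margin and the other 3 lines far from it. The log2 change was -2.08 in InsF, -1.45 in InsG, -1.62 in InsH and -0.17 in InsE, so the InsF level was 0.237 of that of control. Between the deep and the shallow libraries these values hardly moved, at -2.08 and -2.08 in InsF and at -1.60 and -1.64 in InsH. Here each library was set against the control library of the same number, although the numbers were not taken to pair the lines with control. The related pseudogene SCDP1 reached at most 0.24 TPM in any library.

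SCD5 (chr4:82629539-82798857, minus strand), a second delta-9 desaturase, was expressed at a far lower level. It had 8.91 and 8.63 TPM in InsE, 8.82 and 7.12 TPM in InsF, 9.19 and 7.59 TPM in InsG and 7.18 and 7.02 TPM in InsH, against 9.36 and 9.20 TPM in control. The replicates of InsF and of InsG differed by more TPM than the mean of each line differed from that of control. SCD5 fell only in the comparison of InsH with control, by 0.46 ± 0.10 on the log2 scale (SE; edgeR adjusted p = 0.0126). That call was lost without InsH replicate 1 (adjusted p = 0.0793) and without control replicate 1 or 2 (0.0890 and 0.0649). In InsE, InsF and InsG its log2 change was -0.06, -0.26 and -0.20, with edgeR adjusted p of 0.709, 0.0846 and 0.179. The difference between lines in SCD5 did not pass the test either (edgeR adjusted p = 0.109).

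The SCD to SCD5 ratio of TPM was 28.3 and 27.6 for InsE, 8.02 and 9.36 for InsF, 12.1 and 13.7 for InsG, and 13.8 and 13.0 for InsH, against 29.6 and 29.9 for control. InsE thus stood next to control, and the 3 other lines well below both. The SCD to FASN ratio was 0.978 and 0.880 for InsE, 0.479 and 0.467 for InsF, 0.727 and 0.673 for InsG, and 0.614 and 0.560 for InsH, against 0.960 and 0.916 for control. SCD was therefore lower relative to FASN in all libraries of InsF, InsG and InsH than in any library of InsE or control. Since SCD was chosen by its level, no test was made of these ratios.

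**Figure D2:**
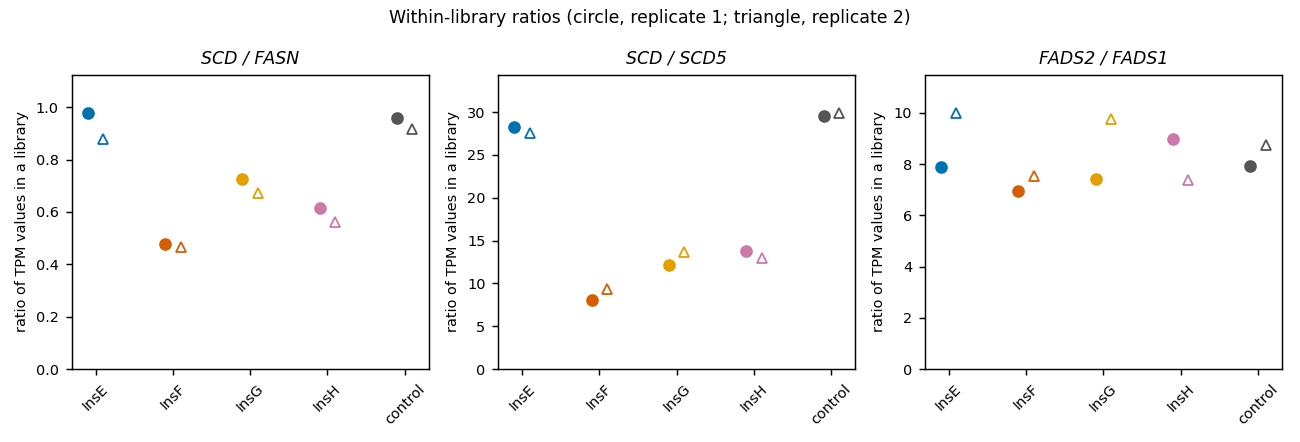
Ratios of TPM within each library (vertical axes, from 0) for SCD over FASN, SCD over SCD5 and FADS2 over FADS1 in the 4 insulator lines and control; circles are replicate 1 and triangles replicate 2. SCD over FASN is 0.467 and 0.479 in InsF, against 0.916 and 0.960 in control, while FADS2 over FADS1 runs from 6.96 to 10.0 with the groups overlapping.

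FADS1 and FADS2 lie on opposite strands of chromosome 11 (FADS1 at chr11:61799625-61829318, minus strand; FADS2 at chr11:61792980-61867354, plus strand). They encode the delta-5 and delta-6 desaturases of polyunsaturated fatty acids. Their annotated exons share 490 bases, 4.79% of those of FADS1. The strand setting of the counting is not given in the sources used here, so reads from the shared stretch cannot be told apart.

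FADS1 had 14.7 and 13.6 TPM in InsE, 11.3 and 12.1 TPM in InsF, 11.3 and 10.7 TPM in InsG and 10.5 and 13.4 TPM in InsH, against 18.3 and 16.3 TPM in control. No insulator library reached the control range, and InsE lay between control and the other lines. FADS1 fell by 0.80 ± 0.06 in InsF, 0.69 ± 0.06 in InsG and 0.73 ± 0.07 in InsH on the log2 scale (SE), with edgeR adjusted p of 3.93e-05, 0.000119 and 9.01e-05. In InsE it fell by 0.20 ± 0.06 (edgeR adjusted p = 0.0453). The InsE call was lost whichever of the 10 libraries was left out, with adjusted p of 0.0562 to 0.229, and in DESeq2 (0.274).

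FADS2, far more abundant, had 116 and 136 TPM in InsE, 78.6 and 90.7 TPM in InsF, 84.2 and 104 TPM in InsG and 93.9 and 99.0 TPM in InsH, against 145 and 143 TPM in control. All insulator libraries lay below control, with replicate 2 above replicate 1 in each line. FADS2 fell by 0.76 ± 0.08 in InsF, 0.59 ± 0.08 in InsG and 0.53 ± 0.08 in InsH on the log2 scale (SE; edgeR adjusted p = 0.000243, 0.00123 and 0.00227). Its log2 change in InsE was -0.11 ± 0.08 and missed the threshold (edgeR adjusted p = 0.397). FADS1 and FADS2 kept their calls in InsF, InsG and InsH when any single library was left out, with a highest edgeR adjusted p of 0.0251, for FADS2 in InsH. The FADS2 to FADS1 ratio ran from 6.96 in InsF to 10.0 in InsE, with control at 7.94 and 8.74 inside that range.

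Promoter windows of 250 bases before to 50 after the annotated start came from RefSeq (GRCh38.p14) for 9 of the 10 genes. FASN was the exception. They were searched on both strands for the sterol regulatory element letters TCACNCCAC, the E-box CACGTG and the CCAAT box, which are known binding sequences of SREBP1, of basic helix-loop-helix factors and of NF-Y. TCACNCCAC was in none of the windows of the 9 genes, and in 1.13% of all 35116 windows of the table. CACGTG was in the window of ELOVL5 alone, and in 7.26% of all windows. CCAAT was in at least 1 window of SCD, SCD5, FADS2, ACLY, ACACA and ELOVL5, and in 34.6% of all windows. That share is per window and not per gene, while FADS2 and ACLY have 2 windows each and ACACA has 3. The first windows of FADS2 and ACACA held no CCAAT. The windows of 4 genes are shown, for the gene with the largest change, the overlapping desaturase pair and the elongase whose profile over the libraries lay farthest from that of SCD. They are SCD at chr10:100346983-100347282 (plus strand), FADS1 at chr11:61816954-61817253 (minus strand), the second of the 2 windows of FADS2 at chr11:61816154-61816453 (plus strand), and ELOVL5 at chr6:53348901-53349200 (minus strand). Capitals mark CCAAT, its reverse complement ATTGG, or CACGTG.
SCD: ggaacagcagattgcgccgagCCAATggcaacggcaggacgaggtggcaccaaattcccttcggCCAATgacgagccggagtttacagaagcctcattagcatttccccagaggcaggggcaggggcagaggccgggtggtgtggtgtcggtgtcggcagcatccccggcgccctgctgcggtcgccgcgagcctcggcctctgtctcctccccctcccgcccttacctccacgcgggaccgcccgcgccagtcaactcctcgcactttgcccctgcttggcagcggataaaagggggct
FADS1: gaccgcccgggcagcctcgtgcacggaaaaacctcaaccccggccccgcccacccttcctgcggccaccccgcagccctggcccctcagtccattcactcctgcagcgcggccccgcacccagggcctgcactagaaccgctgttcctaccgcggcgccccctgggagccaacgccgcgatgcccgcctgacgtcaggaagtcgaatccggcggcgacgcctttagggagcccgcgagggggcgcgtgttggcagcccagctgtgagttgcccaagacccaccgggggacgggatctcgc
FADS2: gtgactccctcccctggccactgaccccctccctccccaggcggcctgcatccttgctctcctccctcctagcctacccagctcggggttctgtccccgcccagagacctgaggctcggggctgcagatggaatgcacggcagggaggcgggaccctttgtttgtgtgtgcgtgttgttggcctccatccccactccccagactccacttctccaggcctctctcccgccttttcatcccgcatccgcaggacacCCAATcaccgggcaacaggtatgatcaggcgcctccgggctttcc
ELOVL5: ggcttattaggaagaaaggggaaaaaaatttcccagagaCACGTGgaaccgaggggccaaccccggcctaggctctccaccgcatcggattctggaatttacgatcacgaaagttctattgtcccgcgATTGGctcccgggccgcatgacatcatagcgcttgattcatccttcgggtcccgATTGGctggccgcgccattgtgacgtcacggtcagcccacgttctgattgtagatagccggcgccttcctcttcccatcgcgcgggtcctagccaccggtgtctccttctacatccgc
SCD holds 2 CCAAT matches, FADS1 holds none of the 3 motifs, FADS2 holds 1 CCAAT match just after its start, and ELOVL5 holds 2 ATTGG matches and 1 CACGTG match. A match is a description of the letters and not a bound site.

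All 3 enzymes that make palmitate fell in InsF, InsG and InsH. FASN (chr17:82078333-82098332, minus strand) had 258 and 270 TPM in InsE, 147 and 143 TPM in InsF, 153 and 154 TPM in InsG and 161 and 163 TPM in InsH, against 288 and 301 TPM in control. InsF, InsG and InsH stood together far below control, and InsE just below it, with no overlap. FASN fell by 1.02 ± 0.07 in InsF, 1.02 ± 0.07 in InsG and 0.96 ± 0.07 in InsH on the log2 scale (SE; edgeR adjusted p = 1.61e-05, 2.04e-05 and 3.16e-05). The levels were thus 0.493, 0.492 and 0.513 of control. In InsE it fell by 0.27 ± 0.07 (edgeR adjusted p = 0.0211), a call lost without InsE replicate 1 (0.140) and without either control library (up to 0.121). The mean transcript length that RSEM assigned to FASN was 5105 and 5081 bases in InsE, against 5596 and 5468 bases in control, and on log2(TPM + 1) the InsE change was -0.16 (limma adjusted p = 0.103).

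ACACA (chr17:37084988-37406818, minus strand), which makes malonyl-CoA, had 26.1 and 23.2 TPM in InsE, 19.3 and 20.6 TPM in InsF, 22.6 and 20.4 TPM in InsG and 21.9 and 21.1 TPM in InsH, against 29.7 and 28.2 TPM in control. It was below control in every insulator library, with InsE next to control. ACACA was the only one of the 9 tested genes to fall in all 4 lines and to keep all of these calls whichever single library was left out. Its log2 change was -0.35 ± 0.05 for InsE, -0.59 ± 0.05 for InsF, -0.49 ± 0.05 for InsG and -0.49 ± 0.05 for InsH (SE; edgeR adjusted p = 0.00158, 7.17e-05, 0.000267 and 0.000286). On log2(TPM + 1) its InsE change was -0.23 (limma adjusted p = 0.151).

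ACLY (chr17:41866908-41930542, minus strand), the source of cytosolic acetyl-CoA, had 105 and 104 TPM in InsE, 97.8 and 97.1 TPM in InsF, 98.2 and 99.0 TPM in InsG and 98.6 and 99.2 TPM in InsH, against 109 and 110 TPM in control. All insulator libraries lay below both control libraries, InsG and InsH overlapped each other, and all libraries lay within a narrow range. ACLY fell by 0.26 ± 0.06 in InsF, 0.24 ± 0.06 in InsG and 0.23 ± 0.06 in InsH (log2, SE; edgeR adjusted p = 0.00882, 0.0140 and 0.0196), and its InsE change was -0.07 ± 0.06 (0.423). Each of the 3 calls was lost without either control library, with edgeR adjusted p of 0.0623 and 0.0628 for InsF, 0.0889 and 0.0920 for InsG, and 0.107 and 0.109 for InsH. They were also lost without replicate 1 of the line itself, at 0.0619, 0.116 and 0.121. An antisense gene, AC125257.2, shares 156 exon bases with ACLY and was listed at 0 to 51.9 TPM.

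**Figure D3:**
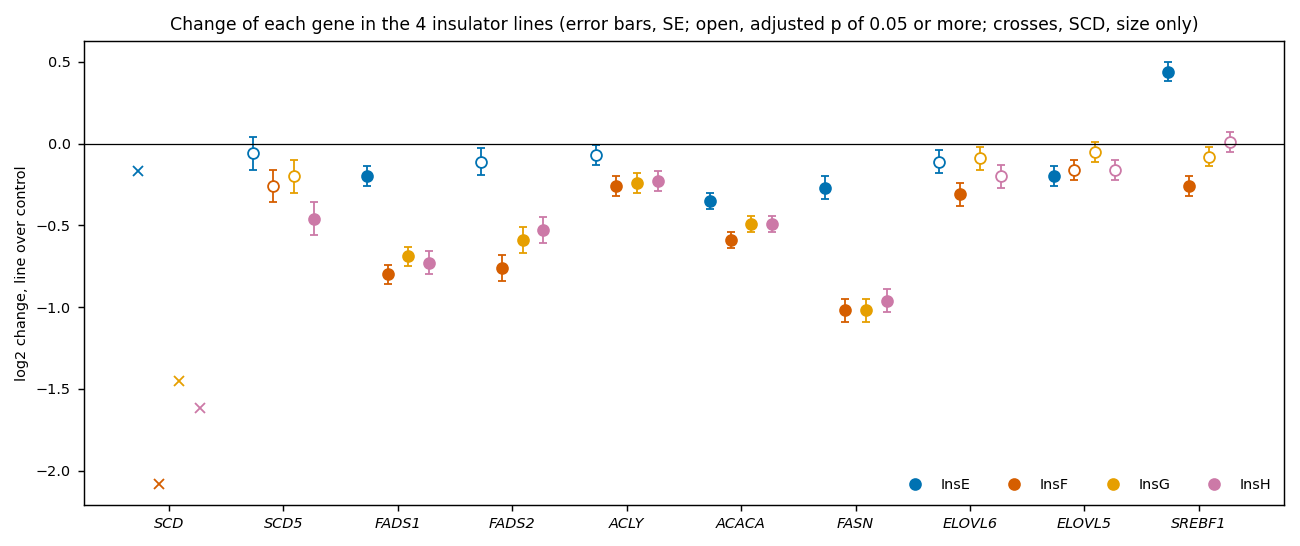
Change of each gene (horizontal axis) in the 4 insulator lines over control (vertical axis, log2 change from edgeR); error bars are SE, open symbols have an adjusted p of 0.05 or more, and crosses give SCD as a size only. SCD changed by -2.08 to -1.45 and FASN by -1.02 to -0.96 in InsF, InsG and InsH, while SREBF1 lies at 0.44 in InsE.

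The elongases were called in 1 line each. ELOVL6 (chr4:110045846-110199199, minus strand), which lengthens palmitate, had 49.1 and 39.5 TPM in InsE, 40.6 and 30.7 TPM in InsF, 43.8 and 54.4 TPM in InsG and 37.6 and 36.6 TPM in InsH, against 54.0 and 52.8 TPM in control. InsG overlapped control, and InsE, InsF and InsG had wide gaps between replicates. ELOVL6 fell by 0.31 ± 0.07 in InsF on the log2 scale (SE; edgeR adjusted p = 0.0114). This call was lost without InsF replicate 2 (0.0706), control replicate 1 (0.0687) and control replicate 2 (0.0790). The log2 change was -0.11 in InsE, -0.09 in InsG and -0.20 in InsH, with edgeR adjusted p of 0.282, 0.381 and 0.0740.

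ELOVL5 (chr6:53267398-53349179, minus strand), an elongase of polyunsaturated chains, had 198 and 178 TPM in InsE, 219 and 197 TPM in InsF, 235 and 216 TPM in InsG and 218 and 193 TPM in InsH, against 214 and 215 TPM in control. InsE lay below control, InsF and InsH overlapped it, and InsG lay above it. On normalised CPM (counts scaled to library size), where transcript length plays no part, the ELOVL5 values of all 4 lines lay at or below control, those of InsG at 357 and 335, against 357 and 358 in control. ELOVL5 fell by 0.20 ± 0.06 in InsE on the log2 scale (SE; edgeR adjusted p = 0.0489), and this call was lost whichever of the 10 libraries was left out (0.0511 to 0.252). In InsF, InsG and InsH the log2 changes were -0.16, -0.05 and -0.16 (edgeR adjusted p = 0.109, 0.647 and 0.109), and that of InsG turned to 0.07 on log2(TPM + 1).

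SREBF1 (chr17:17810399-17837002, minus strand), a regulator of the set, had 82.0 and 84.5 TPM in InsE, 49.8 and 48.8 TPM in InsF, 58.2 and 63.5 TPM in InsG and 58.5 and 68.4 TPM in InsH, against 61.3 and 58.3 TPM in control. InsE lay above all other libraries and InsF below them, and InsG and InsH overlapped control. SREBF1 rose by 0.44 ± 0.06 in InsE on the log2 scale (SE; edgeR adjusted p = 0.00116), 1.36-fold, and kept this call whichever single library was left out (highest adjusted p 0.0182). It fell by 0.26 ± 0.06 in InsF (edgeR adjusted p = 0.0177), a call lost without InsF replicate 1 (0.101), control replicate 1 (0.0866) and control replicate 2 (0.104). In InsG and InsH its log2 changes were -0.08 and 0.01 (edgeR adjusted p = 0.405 and 0.926). SREBF1 shares 556 exon bases, 6.92% of its exons, with RAI1 on the opposite strand, which had 17.9 to 26.8 TPM. SREBF2, the paralogue of SREBF1, which encodes SREBP2 and is known mainly as a regulator of cholesterol synthesis, was singled out after its values were seen. SREBF2 had 43.6 ± 2.5 TPM in InsE, 32.6 ± 0.18 TPM in InsF, 33.9 ± 3.3 TPM in InsG and 34.0 ± 0.54 TPM in InsH, against 44.5 ± 0.83 TPM in control (SD, n = 2 each). It fell by 0.54 in InsF, 0.53 in InsG and 0.49 in InsH on the log2 scale (edgeR adjusted p = 0.00122, 0.00164 and 0.00271), and its InsE change was -0.05 (0.721). SREBF2 was higher in InsE than in the mean of the other 3 lines by 0.47 (edgeR adjusted p = 0.000708). These 4 calls of SREBF2 were kept whichever single library was left out.

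The summed level of the 10 genes was 1110 and 1100 TPM in InsE, 743 and 714 TPM in InsF, 827 and 833 TPM in InsG and 807 and 791 TPM in InsH, against 1210 and 1210 TPM in control. Without SCD the sums were 859 and 857 TPM in InsE, 673 and 647 TPM in InsF, 716 and 730 TPM in InsG and 708 and 700 TPM in InsH, against 929 and 933 TPM in control. InsE lay between control and the other lines on both sums.

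InsE was then set against the mean of InsF, InsG and InsH. The size of this difference uses no control library, but its SE and p-value rest on the spread over all 10 libraries, control included. Of the 9 genes 6 were higher in InsE, where 11.4% of all tested genes were called higher, and none was lower, where 12.8% were called lower by edgeR. With the replicate number as a block in the 8 insulator libraries alone, 8 were higher and 1 was lower, where 25.9% and 23.7% of all genes were called higher and lower. The genes added were SCD5, ELOVL6 and, as the lower one, ELOVL5, at 0.23, 0.11 and -0.07 on the log2 scale (edgeR adjusted p = 0.00523, 0.0059 and 0.00158). With the block over all 10 libraries, 7 were higher and none was lower, where 18.7% and 19.5% of all genes were called by edgeR. Without the block ELOVL5, the 1 gene of the 9 with a value under 0, differed by -0.08 ± 0.05 (edgeR adjusted p = 0.327). FASN was higher by 0.73 ± 0.06, SREBF1 by 0.55 ± 0.05, FADS1 by 0.54 ± 0.05 and FADS2 by 0.52 ± 0.07 on the log2 scale (SE; edgeR adjusted p = 2.35e-05, 7.28e-05, 0.000106 and 0.000539). All 4 calls were kept whichever single library was left out. ACLY and ACACA were higher by 0.18 ± 0.05 and 0.18 ± 0.04 (edgeR adjusted p = 0.0188 and 0.0169). These calls were lost without either InsE library, with adjusted p of 0.0698 and 0.102 for ACLY and of 0.0944 and 0.0726 for ACACA. SCD5 and ELOVL6 differed by 0.25 ± 0.08 and 0.09 ± 0.06 (edgeR adjusted p = 0.0555 and 0.296). On log2(TPM + 1) the count was 3, since FADS1, ACLY and ACACA missed the threshold (limma adjusted p = 0.104, 0.187 and 0.0787). The share of all genes called in that fit is not given here.

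**Figure D4:**
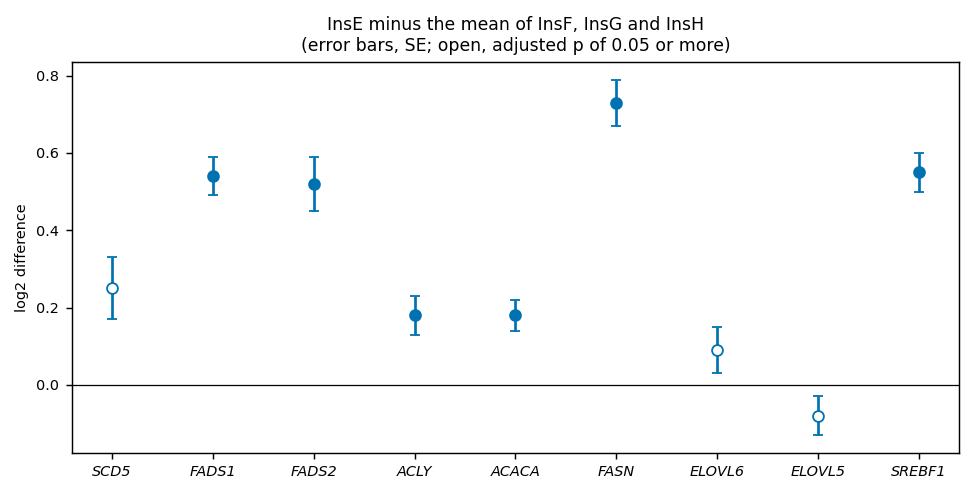
Difference between InsE and the mean of InsF, InsG and InsH (vertical axis, log2 scale, from edgeR) for the 9 genes other than SCD (horizontal axis); error bars are SE and open symbols have an adjusted p of 0.05 or more. FASN stands highest at 0.73, and ELOVL5 lies below 0 at -0.08.

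InsF was also set against the mean of InsG and InsH. Of the 9 genes none was called, where only 0.148% of all tested genes were called in either direction by edgeR. With so few calls over all genes, the lack of a call does not show that InsF was like InsG and InsH in these genes. At an unadjusted p under 0.05, edgeR gave 3 genes, SREBF1, FADS2 and ELOVL6, and 7.21% of all genes. DESeq2 and limma on log2(TPM + 1) called none of the 9 after adjustment, where they called only 39 and 7 of all genes. At an unadjusted p under 0.05 they gave 2 each of the 9, with 2.82% and 5.32% of all genes. SREBF1 differed by -0.23 ± 0.06, FADS2 by -0.20 ± 0.07 and ELOVL6 by -0.16 ± 0.06 on the log2 scale (SE; edgeR adjusted p = 0.317, 0.637 and 0.653). FASN differed by -0.03 ± 0.06 (edgeR adjusted p = 0.943). SCD, given as a size only, was at 0.686 of the mean of InsG and InsH. In the 4 insulator lines, replicates with the same number deviated together, and a fit to the 8 insulator libraries with the replicate number as a block called 6 of the 9 genes in this contrast, where 17.8% of all genes were called. The sizes were about the same, with SREBF1 at -0.23 ± 0.03, FADS2 at -0.20 ± 0.02 and ELOVL6 at -0.14 ± 0.04 (edgeR adjusted p = 4.02e-07, 2.92e-07 and 0.00627).

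Any difference among the 4 lines was called for 4 of the 9 genes, FASN, SREBF1, FADS1 and FADS2 (edgeR adjusted p = 0.000217, 0.000445, 0.000904 and 0.00332), with 13.2% of all genes called. With the replicate number as a block in the insulator libraries alone, all 9 were called, as were 55.3% of all tested genes. ACACA (edgeR adjusted p = 0.0619 without the block) and ELOVL5 (0.356) were among those added.

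The genes whose profile over the 10 libraries lay nearest to that of SCD were looked for among 9443 protein-coding genes, by the root-mean-square distance of centred log2 CPM. The nearest was DUSP6, an ERK phosphatase gene, at a distance of 0.263, with 115 TPM in InsE, 42.3 TPM in InsF, 42.2 TPM in InsG and 45.5 TPM in InsH, against 106 TPM in control. CRABP2, a retinoic acid binding protein gene, followed at 0.280, with 37.5 TPM in InsE and 15.2 to 15.7 TPM in the other 3 lines, against 48.4 TPM in control. GDF10, SLC29A2 and MYCN came next at 0.291, 0.295 and 0.315. Of the fatty acid genes FASN was nearest, at 0.434 and rank 19, followed by FADS1 at 0.521 and rank 46 and FADS2 at 0.544 and rank 60. ACACA, SREBF1 and SCD5 ranked 283, 478 and 592, ACLY 976, ELOVL6 1273 and ELOVL5 3562. The order describes 10 libraries that share the line, and carries no test.

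Of 79 other genes of fatty acid metabolism in 8 lists, 70 were tested. In InsE 8 of them rose and 9 fell, 11.4% and 12.9% of the 70, close to the 10.8% and 12.4% of all tested genes. In InsF 5 rose and 15 fell, 7.14% and 21.4%, against 10.9% and 11.3% of all genes. In InsG 4 rose and 13 fell, 5.71% and 18.6%, against 9.86% and 10.5%. In InsH 1 rose and 15 fell, 1.43% and 21.4%, against 8.95% and 9.46%. Their median log2 change was -0.03, -0.07, -0.09 and -0.06.

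Among the 6 genes that supply carbon or NADPH, IDH1, a cytosolic source of NADPH, was highest in InsE and lowest in InsF. It had 75.8 ± 6.0 TPM in InsE, 46.7 ± 3.2 TPM in InsF, 54.0 ± 4.2 TPM in InsG and 50.9 ± 3.1 TPM in InsH, against 63.9 ± 0.32 TPM in control (SD, n = 2 each). IDH1 fell by 0.53 in InsF, 0.34 in InsG and 0.43 in InsH on the log2 scale (edgeR adjusted p = 0.000538, 0.00649 and 0.00213), and rose by 0.22 in InsE (0.0358). The InsE call was lost without InsE replicate 1 or either control library, and the InsG call without either control library, with adjusted p up to 0.239 and 0.0601. PGD, of the pentose phosphate pathway, fell by 0.24 in InsF, 0.31 in InsG and 0.21 in InsH (edgeR adjusted p = 0.00909, 0.00252 and 0.0199), and its calls in InsF and InsH were lost without replicate 1 of the line or either control library (up to 0.0735 and 0.129). In InsF 3 of the 6 fell, and in InsG and InsH 2 each, where 11.3%, 10.5% and 9.46% of all genes were called lower.

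Of 11 other elongation and desaturation enzymes tested, 3 fell and 1 rose in InsE, where 12.4% of all genes were called lower and 10.8% higher. ELOVL4, an elongase of very long chains, fell by 0.61 ± 0.08 in InsE on the log2 scale (SE; edgeR adjusted p = 0.000588) and was lower there than in the mean of the other 3 lines by 0.46 (0.00105), calls kept whichever single library was left out. ELOVL4 also fell by 0.23 in InsF (edgeR adjusted p = 0.0488), a call lost in 8 of the 10 omissions of a library (up to 0.231). ELOVL2 changed by -1.46 ± 0.34 in InsE (edgeR adjusted p = 0.0137), from 16 counts in its 2 libraries against 56 in control. That call was lost without InsE replicate 1 or either control library, with an adjusted p of up to 0.213. HACD4, a dehydratase of the elongation cycle, rose in all 4 lines by 0.26 to 0.44, with edgeR adjusted p from 0.0453 in InsE to 0.00391 in InsG. Each HACD4 call was lost without at least 1 library, with an adjusted p of up to 0.311 in InsE and 0.0608 in InsG.

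Of 9 tested genes that control malonyl-CoA, 2 fell in every line. Of all genes 12.4%, 11.3%, 10.5% and 9.46% were called lower in InsE, InsF, InsG and InsH. The 2 were PRKAA2 and PRKAG2, subunits of the kinase AMPK that inactivates the ACACA protein. The AMPK gene PRKAA1 had 61.8 TPM in control, against 2.32 TPM for PRKAA2. Neither PRKAA1 (log2 change -0.01 to 0.21) nor PRKAG1 (up to 0.15) was called in any line. PRKAB2 rose by 0.43 in InsG (edgeR adjusted p = 0.0185), lost without InsG replicate 1 or either control library. In InsF 1 other gene of the list rose. PRKAA2 fell by 1.26 ± 0.16 in InsE on the log2 scale (SE; edgeR adjusted p = 0.000564), and by 0.72 in InsF, 0.58 in InsG and 0.81 in InsH (0.00788, 0.0235 and 0.00631). The InsE call was kept whichever single library was left out, and the others were lost without control replicate 1, with adjusted p up to 0.0800, 0.162 and 0.0653 over all omissions. PRKAG2 fell by 0.27 to 0.44 (edgeR adjusted p = 0.0367 in InsE and 0.00383 in InsF) and likewise lost its calls without control replicate 1.

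Of the 3 tested acyl-CoA synthetases, ACSL3 fell in all 4 lines, by 0.51 in InsF and 0.42 in InsH on the log2 scale (edgeR adjusted p = 0.0012 and 0.00423). Its calls in InsE and InsG (0.0437 and 0.0309) were lost without either control library, among others, with adjusted p up to 0.242 and 0.165. ACSL4, which prefers polyunsaturated chains, fell by 0.61 in InsF and 0.44 in InsH (edgeR adjusted p = 0.00511 and 0.0275), and its log2 change in InsE and InsG was -0.16 and -0.20 (0.360 and 0.264). The InsH call was lost without InsH replicate 2 or either control library (up to 0.156). The third, ACSL1, went the other way and rose by 0.29 in InsF (edgeR adjusted p = 0.0273). That call was lost without either InsF library or either control library. Its log2 change was 0.11 in InsE, 0.22 in InsG and 0.22 in InsH (edgeR adjusted p = 0.377, 0.0759 and 0.0922). ACSL5 and ACSL6 had at most 8 counts in any group and were not tested.

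Among 14 genes of SREBP processing and partner factors, MLXIPL, the carbohydrate-responsive factor ChREBP, had the widest change. It had 7.68 ± 1.8 TPM in InsE, 3.24 ± 0.23 TPM in InsF, 4.14 ± 1.0 TPM in InsG and 4.93 ± 0.96 TPM in InsH, against 10.5 ± 1.8 TPM in control (SD, n = 2 each). The log2 change of MLXIPL was -1.85 ± 0.21 in InsF, -1.5 ± 0.20 in InsG and -1.39 ± 0.21 in InsH (SE; edgeR adjusted p = 0.000296, 0.000999 and 0.00176), and its InsE change was -0.47 ± 0.20 (0.114). INSIG1, which retains SREBP in the endoplasmic reticulum, had 217 ± 17 TPM in InsE, 113 ± 5.7 TPM in InsF, 149 ± 14 TPM in InsG and 141 ± 5.9 TPM in InsH, against 157 ± 1.5 TPM in control (SD, n = 2 each). It changed by 0.49 ± 0.06 in InsE and by -0.56 ± 0.06 in InsF (log2, SE; edgeR adjusted p = 0.000502 and 0.000241), and was higher in InsE than in the mean of the other lines by 0.82 ± 0.05 (4.99e-06). These calls of MLXIPL and INSIG1 were kept whichever single library was left out. INSIG1 fell by 0.27 in InsH as well (0.0140), lost without InsH replicate 2 or either control library (up to 0.0991). INSIG2 rose by 0.57 in InsE and 0.60 in InsG (edgeR adjusted p = 0.0123 and 0.0105), calls lost without either control library (up to 0.152 and 0.105).

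Of 13 tested genes of glycerolipid synthesis and droplets, MGLL, a monoacylglycerol lipase, fell by 0.39, 0.55, 0.45 and 0.44 in InsE, InsF, InsG and InsH on the log2 scale (edgeR adjusted p = 0.00284, 0.000399, 0.00156 and 0.00191), and kept all 4 calls whichever single library was left out. PNPLA3 fell by 0.93 in InsF and 0.91 in InsG (edgeR adjusted p = 0.0352 and 0.0418), from 49 and 62 counts, against 102 in control, and both calls were lost without either control library (up to 0.168 and 0.188). LPIN1 fell by 0.24 in InsF, 0.33 in InsG and 0.31 in InsH (0.0255, 0.00679 and 0.0110), and each call was lost without control replicate 1. Other genes of the list rose, LPIN2 by 0.25 in InsF and 0.2 in InsG (edgeR adjusted p = 0.0112 and 0.0327) and DGAT1 by 0.22 in InsE (0.0358). LPIN2 and DGAT1 were not followed through the omissions of a library.

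Of the 7 tested uptake and binding genes, FABP4 and FABP5, fatty acid carriers of the cytosol, fell in InsG and InsH. FABP4 fell by 0.34 and 0.33 and FABP5 by 0.24 and 0.27 on the log2 scale (edgeR adjusted p = 0.0266, 0.0313, 0.0309 and 0.0206), and all 4 calls were lost without either control library (up to 0.147, 0.159, 0.196 and 0.152). FABP4 fell by 0.30 in InsE as well (edgeR adjusted p = 0.0400), a call lost without InsE replicate 2 or either control library (up to 0.209), and the InsE change of FABP5 was -0.18 (0.0761). In InsF their log2 changes were -0.05 and -0.03 (edgeR adjusted p = 0.751 and 0.802). Of the 7 genes of mitochondrial fatty acid synthesis, CBR4 rose by 0.74 ± 0.17 in InsE (log2, SE; edgeR adjusted p = 0.0144). That call was lost without InsE replicate 1 or either control library. None of the 7 was called in the other 3 lines by edgeR, where 8.95% to 10.9% of all genes were called higher and 9.46% to 11.3% lower.

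**Figure D5:**
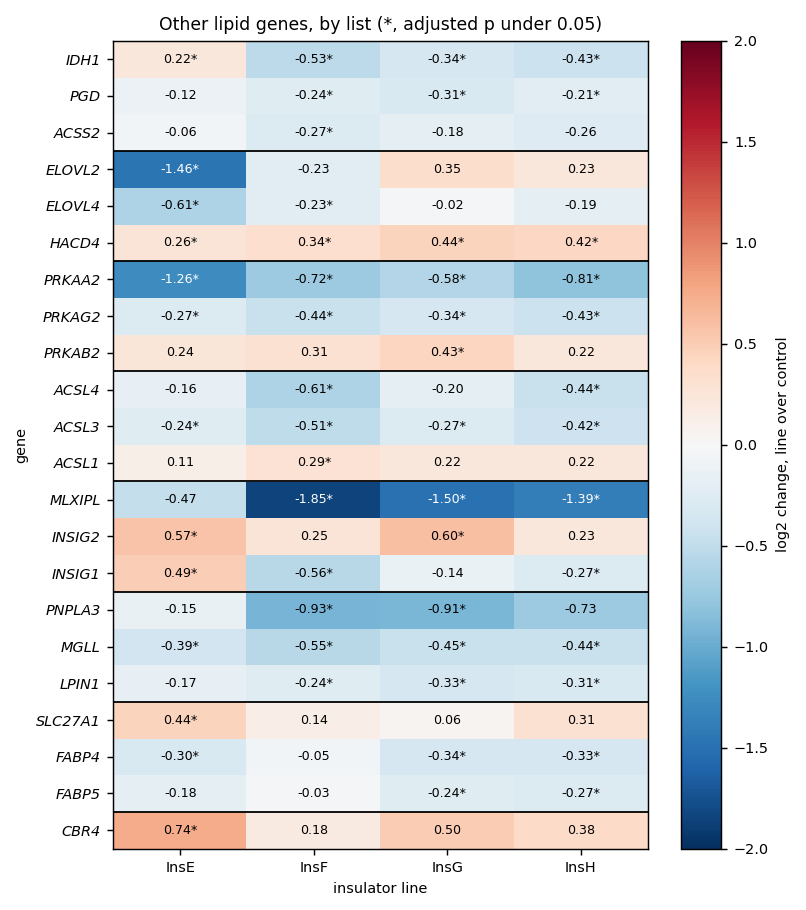
Log2 change over control (colour and printed value, from edgeR) of 22 other lipid genes (vertical axis, grouped by list with black lines) in InsE, InsF, InsG and InsH (horizontal axis); stars mark an adjusted p under 0.05. MLXIPL is lowest at -1.85 in InsF, ELOVL2 and PRKAA2 are lowest in InsE at -1.46 and -1.26, and INSIG1 runs from 0.49 in InsE to -0.56 in InsF.

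The cholesterol synthesis genes HMGCS1 and SQLE fell in InsF, InsG and InsH. HMGCS1 fell by 0.60, 0.30 and 0.44 on the log2 scale (edgeR adjusted p = 0.000663, 0.0252 and 0.00468), and SQLE by 0.70, 0.49 and 0.54 (1.68e-05, 0.000182 and 0.000109). The InsG call of HMGCS1 was lost without InsG replicate 2 or either control library (up to 0.137). In InsE HMGCS1 rose by 0.30 and SQLE fell by 0.17 (edgeR adjusted p = 0.0216 and 0.0327), calls lost without InsE replicate 1 or either control library, among others for SQLE (up to 0.141 and 0.186). Both genes were higher in InsE than in the mean of the other 3 lines, by 0.74 and 0.40 on the log2 scale (edgeR adjusted p = 3.89e-05 and 0.000103).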

How the data were processed

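Polyadenylated RNA of 10 libraries in 5 groups of 2 was sequenced. The genome build hg38 and the tools RSEM 1.3.2, STAR 2.5.3 and DESeq2 1.38.3 are those named in the submitters' processing notes, and neither annotation nor strand setting is stated there. The authors deposited, per library, expected counts (RSEM estimates per gene, not normalised) and TPM values (length-corrected shares, which keep no depth). A further table with 10 per-sample columns was not used, because its names did not match the labels.

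Expected counts were rounded and fitted in edgeR 4.0.16 (R 4.3.3) with TMM scaling, filterByExpr at a minimum count of 10, the robust quasi-likelihood test, 1 fit over all 10 libraries (5 residual degrees of freedom) and Benjamini-Hochberg adjustment over 15554 genes, at a threshold of 0.05. The script was tested on simulated data. Levels are the deposited TPM; normalised CPM were computed from the rounded counts. Lengths in bases are those of the deposited tables. Alternatives were DESeq2 1.42.0, library sizes alone, no filter, limma 3.58.1 on log2(TPM + 1) and log2(TPM + 0.1), the replicate number as a block and each library left out in turn. Added after seeing the data were fits to the 8 insulator libraries, with and without the block, and a fit with the control libraries merged.

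The replicate numbers come from the sample titles, which do not say what a number marks. The gaps between replicate 1 and 2 correlated at 0.70 to 0.74 across genes between all pairs of insulator lines and at 0.05 between control and each line. The numbers were therefore taken to pair the insulator libraries with each other, and not with control, but only in the fits with a block. The main fit and its calls use no pairing. The titles do not state whether control was prepared together with the insulator lines. A difference in preparation cannot be told apart from a difference between a line and control.

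The members and lists were chosen with earlier results of these data known. Named genes were the 10 members, up to 3 called genes with the largest change per list, the 5 genes with the profile nearest to SCD among genes with a mean log2 CPM of at least 3, and cholesterol synthesis genes, some of which are not reported here. SREBF2 was added after its values were seen. Positions came from GENCODE release 29 (hg38), and promoter windows from RefSeq. Intervals and p-values do not cover variation between cultures.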

Additional observations from a re-analysis of the deposited data

Results flagged for a closer look

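The tests of the difference between lines singled out 6 of the 9 genes other than SCD, each higher in InsE than in the mean of InsF, InsG and InsH by edgeR, where 11.4% of all tested genes were called higher. The log2 difference was 0.73 for FASN, 0.55 for SREBF1, 0.54 for FADS1 and 0.52 for FADS2, with adjusted p of 2.35e-05, 7.28e-05, 0.000106 and 0.000539. It was 0.18 for ACLY and 0.18 for ACACA (adjusted p = 0.0188 and 0.0169), calls lost without either InsE library. The edgeR test of any difference among the 4 lines called the first 4 genes alone of the 9, with an adjusted p of 0.102 for ACLY and 0.0619 for ACACA, where 13.2% of all genes were called. For the first 4, both InsE libraries lay above all 6 libraries of the other 3 lines in TPM, for FADS1 only by 13.6 against 13.4 TPM. This rests on the same libraries as the calls and adds no support to them, and its share over all genes was not computed. On log2(TPM + 1) FADS1 missed the threshold (limma adjusted p = 0.104).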

How the results depend on the processing

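Of the values of the 10 genes recomputed under other settings, 925 kept their direction and their side of the threshold, 88 lost a call, 18 gained one, 14 changed sign and 15, all of SCD, moved by more than the replicate spread. In InsE the count of 5 was 3 with library sizes alone, 1 on log2(TPM + 1), 1 on log2(TPM + 0.1), 2 with the control libraries merged, and 2 to 3 with a library left out. In InsF the count of 7 was 4 on both TPM scales, 4 with the control libraries merged and 4 to 7 with a library left out. InsE against the mean of InsF, InsG and InsH gave 6, and 3 on both TPM scales. With the replicate block over all 10 libraries, InsF against the mean of InsG and InsH gave 2 in place of 0, and the test among lines gave 9 in place of 4; with the insulator lines alone and the replicate block these were 6 and 9. On both TPM scales the test among lines gave 2. The replicate block gave 5, 9, 5 and 8 calls in InsE, InsF, InsG and InsH against control, a fit in which control shares only the number. The block over all 10 libraries also raised the calls over all genes, for InsF against the mean of InsG and InsH from 23 to 292. Apart from the shares printed above, the share of all genes called under each setting is not given here. From these counts alone, a move of the 9 genes cannot be told apart from a move of calls over all genes. The cause of these moves was not tested.

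Every value that changed sign was uncalled. On log2(TPM + 1) and log2(TPM + 0.1) the log2 change became 0.07 for ELOVL5 and ELOVL4 and 0.02 for SREBF1 in InsG, 0.03 for FABP5 in InsF, 0.18 for ACSS2 and 0.28 or 0.40 for PNPLA3 in InsE, and 0.03 for FADS1 in InsF against the mean of InsG and InsH. With library sizes alone it was 0.01 for ELOVL5 and 0.03 for ELOVL4 in InsG, 0.00 for FABP4 and 0.02 for FABP5 in InsF and 0.01 for SREBF2 in InsE. With a library left out it ran from -0.13 to 0.02 for ACSS2 and -0.10 to 0.02 for SREBF2 in InsE, from -0.15 to 0.03 for FABP4, -0.08 to 0.01 for FABP5 and -0.05 to 0.33 for CBR4 in InsF, and from -0.05 to 0.01 for ELOVL4 and -0.07 to 0.14 for SLC27A1 in InsG. It ran from -0.05 to 0.08 for SREBF1 in InsH, and in InsF against the mean of InsG and InsH from -0.07 to 0.16 for SCD5, -0.07 to 0.02 for ACLY and -0.10 to 0.05 for FASN. Where a group was left with 1 library, it was assumed to vary like the others.

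With 2 libraries per group and 5 residual degrees of freedom, changes of about 0.2 on the log2 scale lay near the threshold, and a value that missed the threshold does not show that a gene was unchanged.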

Other observations

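PLIN2, the main coat protein gene of lipid droplets in most cell types, had 3 counts in the 10 libraries together, in 2 libraries, and was singled out after its values were seen. Its annotated neighbours on chromosome 9 were expressed, HAUS6 at 11.7 to 18.1 TPM and DENND4C at 7.71 to 11.2 TPM in all 10 libraries. PLIN3, also in the list of glycerolipid synthesis and droplets, had group means from 47.5 TPM in control to 61.8 TPM in InsH. PLIN1 was at 0 in all libraries, and PLIN4 had at most 0.55 TPM. The number of PLIN2 counts covers counting error only.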
